A study of Mus musculus with 12 samples.

Results

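Histone and DNA modifying enzymes are described here in bone marrow-derived macrophages (BMDMs), that is macrophages grown in culture from mouse bone marrow. The genes were chosen by symbol from 9 families: lysine demethylases (Kdm), histone deacetylases (Hdac), sirtuins (Sirt), Tet dioxygenases, DNA methyltransferases (Dnmt), lysine acetyltransferases (Kat), SET domain methyltransferases (Setd), Ezh1 and Ezh2, and arginine methyltransferases (Prmt). The rule found 81 of the 55487 gene models in the deposited table. Of these, 70 were protein coding, 3 were antisense RNAs and the rest were pseudogenes. By family there were 20 Kdm, 12 Hdac, 11 Kat, 9 Dnmt, 9 Setd, 8 Prmt, 7 Sirt, 3 Tet and 2 Ezh members. Poly(A) RNA was sequenced from 4 groups of 3 libraries, 12 in all. WT BMDMs came from C57BL/6 mice and KO BMDMs from RasGEF1b-cKO mice of the same background (Rasgef1b-fl/fl;CMVcre), in which Cre driven by the ubiquitous CMV promoter had removed exons 7 and 8 of Rasgef1b, a guanine nucleotide exchange factor for Ras-like GTPases. Mice of both genotypes were 8 to 12 weeks old, and each group held 3 biological replicates. Cells were left untreated or received LPS, the bacterial lipopolysaccharide sensed by the receptor TLR4, at 100 ng/ml for 4 h. The WT mice were kept by another facility than the one that made the KO line, so genotype and origin cannot be told apart.

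These enzymes write and remove chemical marks on chromatin. Acetyltransferases add acetyl groups to histone tails, which open chromatin and are read by bromodomain proteins, while deacetylases and the NAD-dependent sirtuins remove them. Methyltransferases of the Setd, Ezh and Prmt families and the demethylases of the Kdm family set histone methylation, Dnmt enzymes methylate cytosine in DNA, and Tet enzymes oxidise that methyl group as a first step of its removal. In macrophages, LPS sets off a wave of inflammatory transcription in which both activating and repressive enzymes of these families are known to take part.

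Rasgef1b itself, the targeted gene, was at 2171, 2001 and 2043 normalized counts in untreated WT, 12554, 11855 and 11844 in LPS-treated WT, 695, 545 and 587 in untreated KO and 3775, 4192 and 3618 in LPS-treated KO BMDMs (replicates 1 to 3). It was lower in every KO library, with a log2 fold change of -1.77 untreated and -1.65 with LPS. Reads were counted over the whole gene, of which the deletion removes 2 exons. A normalized count is the number of reads of a gene divided by 1 scaling factor per library. Libraries held 19316691 to 24977356 reads in genes, and the enzymes took 0.34% to 0.38% of them untreated and 0.24% to 0.26% with LPS. The LPS-inducible genes Tnf, Il6 and Nos2 rose by at least 6.21 on the log2 scale in both genotypes. All 8 macrophage markers were measured, while the T cell genes Cd3d, Cd3e and Cd8a and the erythroid genes averaged under 1 normalized count in every group. The summed neutrophil markers reached 226 to 637 in WT libraries and 227 to 1144 in KO libraries, against at least 215104 for the summed macrophage markers, and their part in the results was not tested. The summed T cell list, mostly Cd4, was at 151 to 245 in WT and 83.5 to 141 in KO libraries. These are bulk samples, in which fewer cells of a type and less RNA per cell cannot be told apart. Replicate 2 of untreated KO had 5.06% of its reads on a ribosomal RNA gene model, against at most 0.0874% elsewhere. Of the 12 libraries, 4 held almost no Y-linked reads (3 to 7, against 2332 to 5215 in the other 8), which was 1 library in each group.

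After LPS, about as many of the enzymes were called higher as lower in each genotype. In WT BMDMs, 67 members were measured at a mean of at least 10 and tested. Genes were called where the adjusted p was under 0.05 and the change at least 2-fold. By this rule 12 were higher and 12 lower, against a background of 17.1% of all 12656 tested genes higher and 16.9% lower. At an adjusted p under 0.05 alone, 23 were higher and 27 lower, with 36.7% and 36.6% of all genes. In KO BMDMs, 11 of 67 were called higher and 13 lower, with 17.3% and 16.6% of all 12732 tested genes. At an adjusted p under 0.05 alone, 23 were higher and 30 lower, with 36.3% and 35.7% of all genes. Dnmt3c and Hdac1-ps, called higher in both genotypes, reached the mean of 10 through the LPS-treated libraries alone. Their calls are not read as support. Hdac11, with a mean above 10 only untreated, was not tested for LPS. The 12 and 12 of 67 lie close to the shares of all genes, so these counts are no result about the enzymes as a set. Its median log2 fold change was -0.10 in WT and -0.11 in KO BMDMs, beside -0.02 and -0.01 over all tested genes.

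The direction of small changes depended on how libraries were put on 1 scale, since the deposited normalized counts sum to more in LPS-treated than in untreated libraries. When each library was divided by its total reads instead (total-read scaling), the median of all tested genes moved by -0.72 in WT and -0.68 in KO BMDMs, with upper quartile scaling by -0.32 in both, and with quantile normalization by -0.13 and -0.14. Relative to that median, 12 members in WT lay at least 2-fold higher and 12 lower with the deposited scale, upper quartile scaling and total-read scaling, and 9 and 9 with quantile normalization. In absolute terms the calls leaned to the lower side. Under upper quartile scaling 8 were higher and 20 lower in WT, and 5 and 20 in KO. Under total-read scaling they were 3 and 29 in WT and 4 and 29 in KO. All tested genes leaned the same way. In WT 1730 of 12656 were higher and 3025 lower under upper quartile scaling, and 1379 and 4784 under total-read scaling. In KO these counts were 1795 and 3032 of 12732, and 1447 and 4621. The lean is thus not read as one of the enzymes. Each member called higher or lower on the deposited scale kept its sign under these 3 scalings. With total-read scaling only Dnmt3c, Kat2b and Tet2 stayed called higher in WT, and these and Kdm4a in KO. For Dnmt3c, which passed the filter through LPS-treated libraries alone, this is not read as support. The other called rises in WT were then Hdac1-ps 0.94, Kdm4a 0.81, Hdac1 0.77, Hdac9 0.68, Kat6a 0.67, Prmt9 0.49, Kdm5c 0.48, Kdm3b 0.42 and Sirt1 0.30. Ezh1, Hdac2, Kat5, Kdm1a, Kdm7a, Setd2, Setd3, Sirt2 and Sirt6 passed the adjusted p in WT with rises of 0.19 to 0.67 on the log2 scale, and each of them turned to a negative value with total-read scaling. Ratios between 2 genes of the same library are given for paralogs. They do not depend on any factor applied to a whole library, such as upper quartile or total-read scaling, but they can change with quantile normalization.

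**Figure D1:**
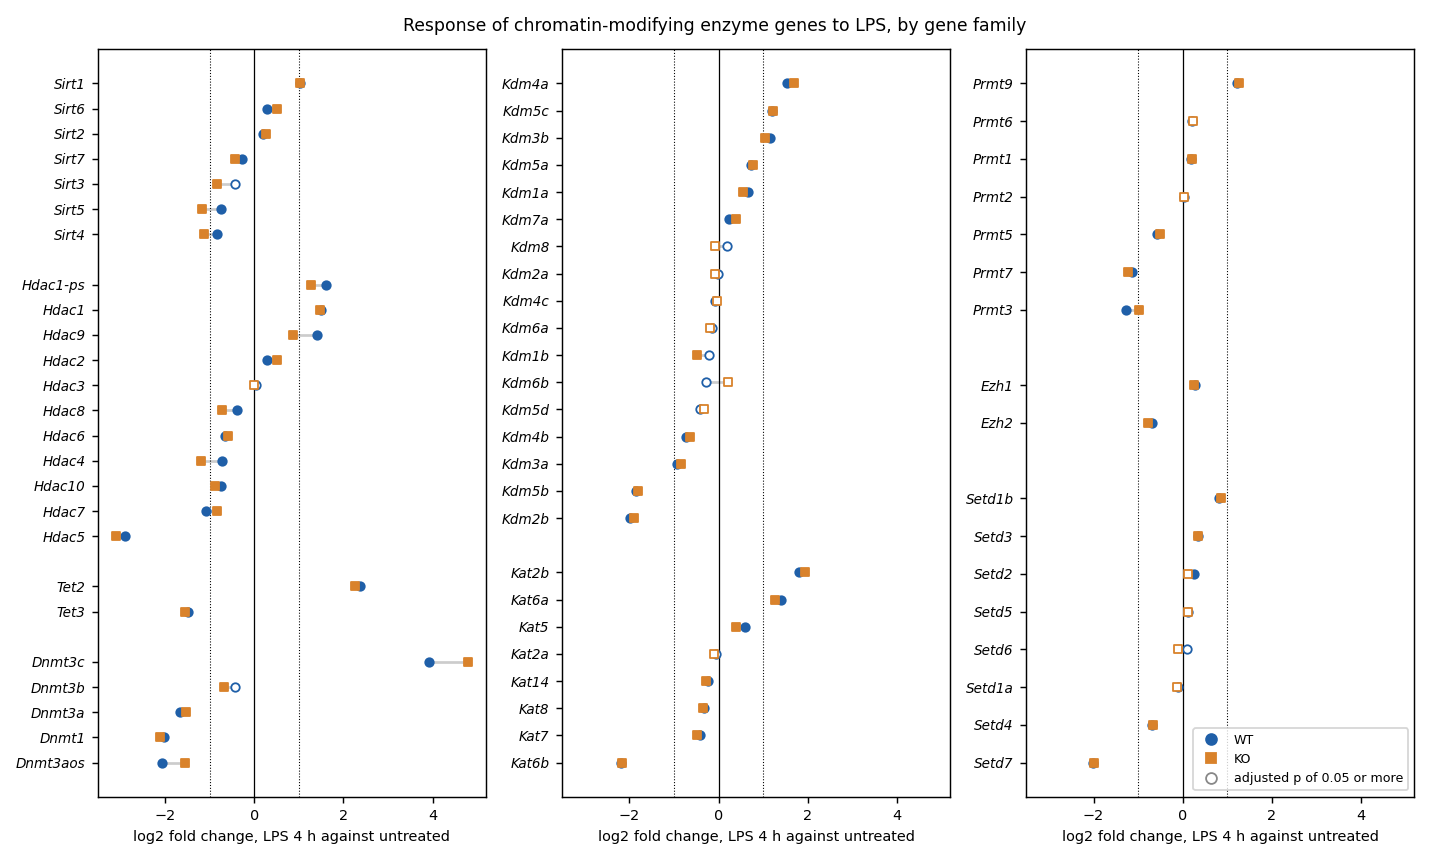
Log2 fold change of each tested member after LPS for 4 h against untreated (x axis) in WT (circles) and KO (squares) BMDMs, n = 3 libraries per group, by family and ordered within it by the WT value. Dotted lines mark a 2-fold change, and open symbols did not reach an adjusted p under 0.05. Members lie between -2.89 for Hdac5 and 3.92 for Dnmt3c in WT, and the symbols of the genotypes lie close together.

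Among the enzymes of DNA methylation, Dnmt1, Dnmt3a and Tet3 fell in both genotypes while Tet2 and the low-count Dnmt3c rose. Dnmt1, which copies methylation onto newly made DNA, was at 3001, 3170 and 2417 in untreated WT and 698, 830 and 597 in LPS-treated WT, and at 3332, 2832 and 2927 against 770, 707 and 610 in KO BMDMs. No LPS-treated library reached the level of an untreated one. The log2 fold change was -2.02 ± 0.13 (SE, limma adjusted p = 6.83e-07, n = 3 and 3) in WT and -2.12 ± 0.10 (adjusted p = 1.91e-07) in KO BMDMs.

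Dnmt3a, a de novo methyltransferase often mutated in blood cancers, was the most abundant methyltransferase of this family both by count and per kilobase of exon. It was at 9126, 8680 and 7387 untreated and 2567, 2735 and 2646 with LPS in WT, and at 6574, 8318 and 7997 against 2414, 3057 and 2492 in KO BMDMs. It fell in both genotypes, with a log2 fold change of -1.66 ± 0.08 in WT (limma adjusted p = 7.32e-08) and -1.52 ± 0.12 in KO (adjusted p = 3.94e-06). Per kilobase, its untreated WT level of 505 normalized counts stood above Dnmt1 (388) and Dnmt3b (7.85), the other de novo enzyme. Dnmt3b was not called in WT (-0.44, adjusted p = 0.107) and passed the adjusted p in KO (-0.67, adjusted p = 0.0136).

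Dnmt3aos, an RNA on the strand opposite to Dnmt3a, overlaps its exons over 9.6% of its own exon length. The strand setting of the read counting was not given in the sources used here, so reads of the pair may not be fully separated. Its counts were 319, 342 and 304 untreated and 67.5, 88.7 and 73.7 with LPS in WT, and 305, 340 and 329 against 94.3, 116 and 121 in KO BMDMs. It fell in both genotypes, with a log2 fold change of -2.06 in WT and -1.55 in KO.

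Dnmt3c, a rodent duplicate of Dnmt3b known for silencing young retrotransposons in male germ cells, lies beside Dnmt3b on chromosome 2 (GRCm38, 153696652 to 153729907). It was at 0, 2.64 and 0 untreated and 25.3, 15 and 29.2 with LPS in WT, and at 0.705, 0 and 0 against 31.4, 26.1 and 40.8 in KO BMDMs. Most reads came from LPS-treated libraries, with 50 against 4 reads in WT and 76 against 1 in KO. The ratio of levels was 24.4 in WT (95% counting interval 8.95 to 92.9), and 130 in KO (22.7 to 5207). Intervals of this kind cover counting error only. Dnmt3c passed the filter through the LPS-treated group alone, and reads shared with Dnmt3b, its close copy, could not be told apart from its own.

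Tet2 and Tet3 changed places. Tet2, on chromosome 3 (GRCm38, 133463679 to 133545139, reverse strand), was at 809, 857 and 879 untreated and 3941, 4232 and 5165 with LPS in WT, and at 1078, 764 and 982 against 5415, 4091 and 3992 in KO BMDMs. It rose by 2.38 ± 0.09 (SE) on the log2 scale in WT (limma adjusted p = 2.31e-08) and by 2.26 ± 0.15 in KO (adjusted p = 1.71e-06). Tet3, on chromosome 6 (83362373 to 83459084, reverse strand), was at 3430, 3484 and 3705 untreated and 1203, 1333 and 1274 with LPS in WT, and at 4053, 3370 and 3977 against 1419, 1254 and 1196 in KO BMDMs. It fell, with a log2 fold change of -1.48 ± 0.06 in WT (adjusted p = 2.54e-08) and -1.56 ± 0.09 in KO (adjusted p = 8.43e-07). Within a library, Tet2 went from 0.236 to 0.246 of the Tet3 count in untreated WT to 3.17 to 4.05 times that count with LPS, a 14.5-fold change of the ratio, and the change was 14.1-fold in KO BMDMs. Tet2 made up 19.1% to 19.7% of the counts of the 3 Tet genes in untreated WT libraries and 76.0% to 80.2% with LPS. On the deposited scale the summed Tet counts moved much less, from 4392 ± 178 (SD) to 5717 ± 662 in WT. Unlike the ratio and the share, a sum depends on the scale of the libraries. Normalized counts of all genes summed to 16487346 to 16778143 in untreated WT libraries and 26950747 to 28238994 with LPS. The direction of the Tet sum is therefore not read. Tet1 was hardly present, with 35 reads in all 12 libraries together.

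**Figure D2:**
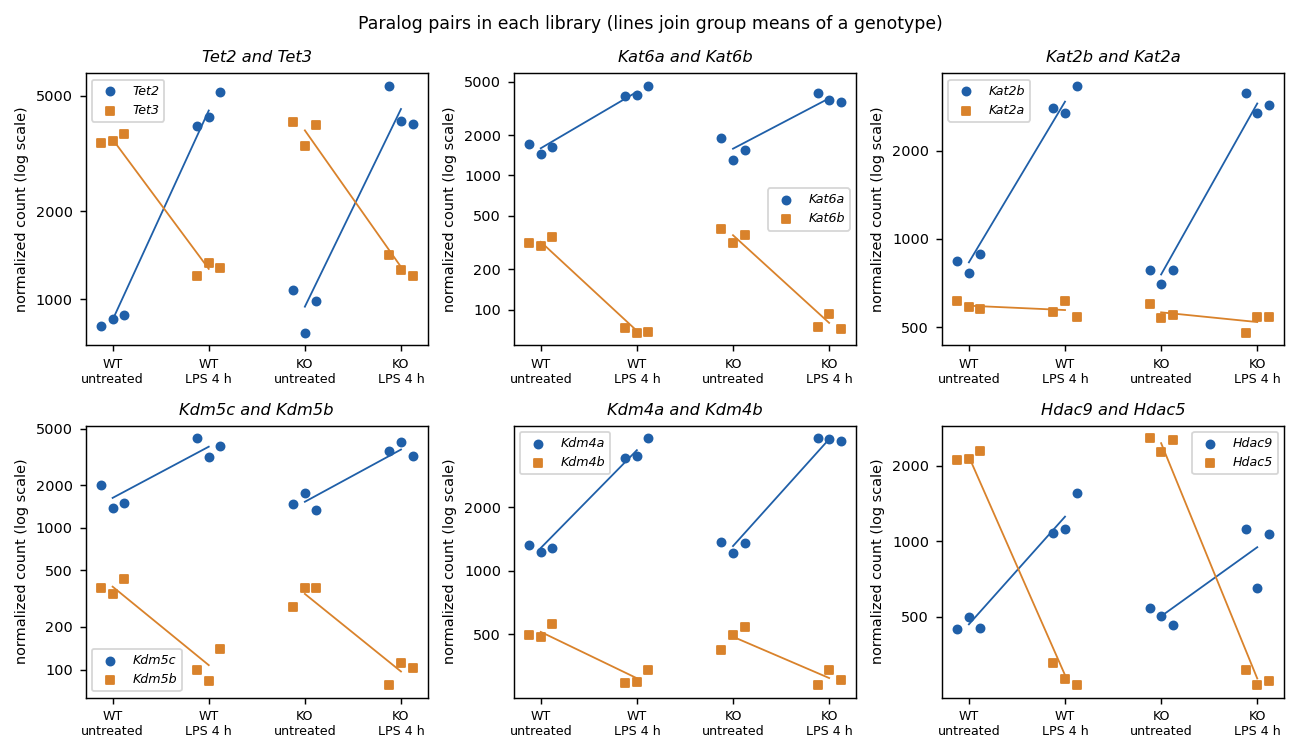
Normalized counts (y axis, log scale) of 6 paralog pairs in each of the 12 libraries by group (x axis), with lines joining the means of the untreated and LPS-treated groups of a genotype. Tet2 and Tet3, and Hdac9 and Hdac5, change their order after LPS in both genotypes, while in the other 4 pairs the gap widens. Pairs not shown had WT ratios that changed from 1.09-fold (Kdm6a to Kdm6b) to 6.03-fold (Kdm5a to Kdm5b). The 6 pairs do not stand for all paralogs.

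Among partners of DNA methylation chosen with earlier results known, Uhrf1, which guides Dnmt1 to newly copied DNA, fell, with a log2 fold change of -2.98 in WT and -3.14 in KO. Tdg, the glycosylase that removes Tet products from DNA, rose by 1.31 and 1.37. In all, 2 of these 6 genes were called higher and 1 lower in each genotype, with a median of -0.11 in WT and -0.20 in KO BMDMs.

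Cell cycle genes, a list chosen with earlier results known, are given beside Dnmt1, Uhrf1 and Ezh2. Of these 3, Ezh2 fell by less than 2-fold and was not called. Of 22 cell cycle genes, 14 were called lower in each genotype, beside 16.9% of all tested genes in WT and 16.6% in KO. Called higher were 0 in WT and 1 in KO, beside 17.1% and 17.3% of all tested genes. The median was -1.21 in WT and -1.29 in KO BMDMs on the log2 scale. Cdc20 (-2.54 in WT), Mcm2 (-2.11) and Aurkb (-1.95) showed the most negative values, while Mki67 (0.04, adjusted p = 0.736), Mcm6 (-0.08, adjusted p = 0.601) and Pcna (0.19, adjusted p = 0.182) did not pass the test in WT. The part of cell cycling in the enzyme levels was not tested. Promoter windows from RefSeq (GRCm38.p6, 250 bases before to 50 after a transcription start) were found for 60 of the 81 members. These members had 84 windows. Of the E2F motif, searched on both strands, the form TTTCCCGC was in 1 of the 84, that of Sirt4, and in 1.07% of all 32851 windows. The form TTTGGCGC was in 2 of the 84, those of Dnmt1 and Ezh2, and in 0.514% of all windows. The windows of Dnmt1 (chr9:20952574-20952873, reverse strand) and Ezh2 (chr6:47594981-47595280, reverse strand) are shown because both hold this motif, in capitals, and both genes fell. They read 5′ to 3′:
Dnmt1: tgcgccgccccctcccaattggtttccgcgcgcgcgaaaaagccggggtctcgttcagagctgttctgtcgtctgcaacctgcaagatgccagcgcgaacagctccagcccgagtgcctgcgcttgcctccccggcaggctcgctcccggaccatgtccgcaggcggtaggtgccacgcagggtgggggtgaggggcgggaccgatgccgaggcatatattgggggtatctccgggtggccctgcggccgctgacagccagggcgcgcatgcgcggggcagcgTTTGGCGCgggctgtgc
Ezh2: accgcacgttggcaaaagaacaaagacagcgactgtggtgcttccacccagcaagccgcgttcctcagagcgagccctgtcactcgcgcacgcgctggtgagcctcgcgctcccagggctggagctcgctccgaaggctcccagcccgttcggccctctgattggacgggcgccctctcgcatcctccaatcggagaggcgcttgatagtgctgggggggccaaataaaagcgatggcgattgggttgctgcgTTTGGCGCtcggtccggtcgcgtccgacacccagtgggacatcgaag
The motif starts 33 bases after the annotated start in Dnmt1 and 3 bases after it in Ezh2. Both windows lie at annotated starts inside the genes, not at their outer ends (20959888 for Dnmt1 and 47595341 for Ezh2). A match of letters is not evidence of binding.

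The Tet windows shown differ in base composition. For each gene the window lies at an annotated start inside it, not at its outer end (133545139 for Tet2 and 83459084 for Tet3). That of Tet2 (chr3:133544341-133544640, reverse strand) holds 57 CpG dinucleotides and that of Tet3 (chr6:83441629-83441928, reverse strand) holds 22, against a median of 20.5 in windows of the members and 7 in all windows. They are shown, with no motif marked, because the 2 genes moved in opposite directions, and none of the 5 motifs searched was found in them:
Tet2: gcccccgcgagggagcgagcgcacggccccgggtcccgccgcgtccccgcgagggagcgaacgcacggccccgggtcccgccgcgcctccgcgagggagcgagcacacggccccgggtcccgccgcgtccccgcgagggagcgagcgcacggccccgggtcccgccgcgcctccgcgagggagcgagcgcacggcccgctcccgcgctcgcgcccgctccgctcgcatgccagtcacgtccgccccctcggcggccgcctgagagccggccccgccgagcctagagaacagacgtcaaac
Tet3: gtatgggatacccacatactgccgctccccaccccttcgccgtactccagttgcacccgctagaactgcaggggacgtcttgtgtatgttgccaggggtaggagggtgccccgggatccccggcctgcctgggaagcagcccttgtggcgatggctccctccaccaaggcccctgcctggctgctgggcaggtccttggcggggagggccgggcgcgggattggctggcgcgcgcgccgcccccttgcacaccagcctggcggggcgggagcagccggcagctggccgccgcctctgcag

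Among the histone deacetylases, members moved in both directions. Of the class I enzymes, Hdac1, which works in the nuclear Sin3, NuRD and CoREST complexes, rose while Hdac3 did not pass the test. Hdac1 was at 1235, 1138 and 1132 untreated and 3288, 3293 and 3295 with LPS in WT, and at 1177, 1191 and 1116 against 3360, 3022 and 3250 in KO BMDMs. It rose by 1.49 ± 0.05 in WT (limma adjusted p = 1.38e-08) and by 1.47 ± 0.06 in KO (adjusted p = 1.18e-07). Hdac2, its closest paralog and usual partner, had a log2 fold change of 0.28 in WT and 0.50 in KO, which became -0.44 and -0.18 with total-read scaling. Within a library Hdac1 went from 1.41 to 1.57 times the Hdac2 count to 3.37 to 3.50 times in WT, and from 1.5 to 1.55 times to 2.71 to 3.44 times in KO BMDMs. The values of Hdac3, a catalytic subunit of corepressor complexes, were 0.03 (adjusted p = 0.629) and -0.02 (adjusted p = 0.818). Hdac8 passed the adjusted p in both genotypes, at -0.39 and -0.72. Hdac1-ps, a processed pseudogene copy of Hdac1, was at 6.92, 5.28 and 7.17 untreated and 21.1, 17.7 and 26.4 with LPS in WT, and at 10.6, 5.13 and 6.44 against 15.7, 19.6 and 20.4 in KO BMDMs. It passed the filter through the LPS-treated groups alone. It was called higher in both genotypes, at 1.60 and 1.27, and in KO the call was lost with a pseudocount of 5 (0.95) and with upper quartile (0.98) or total-read scaling (0.64). Its few reads cannot be told apart from reads of Hdac1, so its values are uncertain.

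Of the class IIa enzymes, which shuttle between cytoplasm and nucleus, Hdac5, Hdac4 and Hdac7 fell and Hdac9 rose. Hdac5, on chromosome 11 (GRCm38, 102194432 to 102230166), showed the most negative log2 fold change of all members tested. It was at 2105, 2135 and 2292 untreated and 329, 284 and 267 with LPS in WT, and at 2587, 2264 and 2543 against 306, 268 and 279 in KO BMDMs. It fell, with a log2 fold change of -2.89 ± 0.09 in WT (limma adjusted p = 3.79e-09) and -3.11 ± 0.08 in KO (adjusted p = 7.45e-09), which are 7.42-fold and 8.64-fold lower levels on the log2(count + 1) scale. Hdac9 was at 448, 502 and 452 untreated and 1081, 1120 and 1566 with LPS in WT, and at 545, 503 and 463 against 1125, 650 and 1071 in KO BMDMs. Its rise was called in WT (1.40 ± 0.13, adjusted p = 9e-06) and stayed under 2-fold in KO (0.87 ± 0.19, adjusted p = 0.00291). The interaction was -0.53 with an adjusted p of 0.999. Hdac9 went from 0.197 to 0.235 of the Hdac5 count to 3.28 to 5.86 times that count in WT, and from 0.182 to 0.222 to 2.42 to 3.84 times in KO. Hdac5 made up 31.0% to 33.5% of the counts of the 11 coding Hdac genes in untreated WT and 3.43% to 4.53% with LPS, while Hdac1 went from 16.5% to 18.2% to 42.3% to 45.3%. On the deposited scale the summed Hdac counts were 6790 ± 49.99 (SD) untreated and 7459 ± 287 with LPS in WT. The direction of this sum too depends on the scale of the libraries and is not read.

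Hdac7 was called lower in WT (-1.08, adjusted p = 4e-05) and passed only the adjusted p in KO (-0.84, adjusted p = 0.000327). Without LPS-treated WT replicate 1 its WT value was -0.998, just short of 2-fold. Hdac4 was called lower in KO (-1.19, adjusted p = 0.00012) and passed only the adjusted p in WT (-0.73, adjusted p = 0.000126). Of its exon length 22.4% is shared with an antisense gene model. The class IIb enzymes Hdac6, a cytoplasmic tubulin deacetylase, and Hdac10 had values of -0.65 and -0.74 in WT and -0.58 and -0.89 in KO, past the adjusted p in each case. Hdac11, the class IV enzyme, had 1 to 26 reads per library and was below the level tested for LPS.

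Of 17 genes for partners in deacetylase complexes, 2 were called higher and 2 lower in each genotype, with a median of -0.10 in WT and 0.00 in KO. Called genes included Tbl1xr1 (-1.58 in WT), Tbl1x (1.29) and the NuRD subunit gene Mbd2 (1.23). Tbl1x and Tbl1xr1 encode close relatives within corepressor complexes, and they moved in opposite directions.

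Of the 7 sirtuins, Sirt1 was called higher in both genotypes. This nuclear deacetylase, known to act on the p65 subunit of NF-kB, averaged 493 ± 34.9 untreated and 1003 ± 92.6 with LPS in WT (SD, n = 3 and 3), and 497 ± 37.4 against 1031 ± 204 in KO BMDMs. The log2 fold changes of 1.02 (limma adjusted p = 4.63e-06) and 1.03 (adjusted p = 0.000141) lay at the 2-fold limit, and 2 of 6 libraries left out in turn brought it under that limit in each genotype. Sirt4 and Sirt5, both mitochondrial, were called lower in KO only, at -1.13 and -1.16, beside -0.84 and -0.75 in WT. Those differences between genotypes did not pass the interaction test, with values of -0.28 and -0.41 and an adjusted p of 0.999 each. Sirt7 passed the adjusted p in both genotypes at -0.28 and -0.44. Sirt3, the main mitochondrial deacetylase, passed it in KO (-0.83, adjusted p = 0.00103) and not in WT (-0.43, adjusted p = 0.0569, or 0.0353 with the replicate number as a block). Sirt2, a mainly cytoplasmic enzyme, was the most abundant sirtuin per kilobase, at 561 normalized counts in untreated WT, and its value of 0.19 turned to -0.53 with total-read scaling. Within a library Sirt1 rose from 4.91 to 9.28 times the Sirt5 count to 19.7 to 29.8 times in WT.

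Among the acetyltransferases, Kat6a and Kat2b rose and Kat6b fell. Kat6a and Kat6b encode the MYST enzymes MOZ and MORF, which form the same kind of complex with Brpf proteins. Kat6a was at 1713, 1450 and 1622 untreated and 3925, 4004 and 4678 with LPS in WT, and at 1891, 1311 and 1547 against 4121, 3639 and 3523 in KO BMDMs. It rose by 1.40 ± 0.09 in WT (limma adjusted p = 4.23e-07) and by 1.26 ± 0.13 in KO (adjusted p = 2.43e-05). Kat6b was at 313, 296 and 350 untreated and 73.2, 66.9 and 68.2 with LPS in WT, and at 399, 315 and 362 against 73.8, 92.8 and 72.1 in KO BMDMs. It fell, with a log2 fold change of -2.19 ± 0.11 in WT (adjusted p = 1.5e-07) and -2.16 ± 0.14 in KO (adjusted p = 1.54e-06). The ratio of Kat6a to Kat6b went from 4.63 to 5.48 to 53.6 to 68.6 in WT, a 12.1-fold change, and changed 10.8-fold in KO.

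Kat2b, or PCAF, an acetyltransferase of the SAGA and ATAC coactivator complexes, was at 842, 768 and 887 untreated and 2799, 2687 and 3336 with LPS in WT, and at 784, 700 and 786 against 3145, 2682 and 2869 in KO BMDMs. It rose by 1.82 ± 0.09 in WT (adjusted p = 1.03e-07) and by 1.94 ± 0.08 in KO (adjusted p = 8.76e-08). Its paralog Kat2a, or GCN5, which occupies the same place in those complexes, had values of -0.05 (adjusted p = 0.55) and -0.11 (adjusted p = 0.255). Per kilobase the paralogs stood level in untreated WT, at 171 for Kat2b and 170 for Kat2a, and at 604 and 165 with LPS. The MYST enzyme genes Kat7 and Kat8 passed the adjusted p in WT at -0.41 and -0.34 and Kat14, an ATAC subunit, at -0.23, beside -0.48, -0.34 and -0.29 in KO. Kat5, or TIP60, had 0.60 in WT and 0.38 in KO on the deposited scale and -0.12 and -0.30 with total-read scaling. Of 6 acetyltransferases outside the Kat names, Hat1 was called higher (1.39 in WT, 1.43 in KO) and none was called lower. Ep300 (0.71) and Crebbp (0.24, adjusted p = 0.104), the p300 and CBP coactivators, stayed under 2-fold in WT.

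Lysine demethylases moved member by member within each subfamily. Kdm4a, a demethylase of repressive methyl marks on histone H3, was at 1333, 1231 and 1286 untreated and 3424, 3532 and 4278 with LPS in WT, and at 1368, 1214 and 1351 against 4283, 4242 and 4151 in KO BMDMs. It rose by 1.54 ± 0.08 in WT (limma adjusted p = 2.16e-07) and by 1.69 ± 0.06 in KO (adjusted p = 5.63e-08). Its paralog Kdm4b passed the adjusted p at -0.73 and -0.65, and Kdm4c had values of -0.07 (adjusted p = 0.383) and -0.04 (adjusted p = 0.716). The ratio of Kdm4a to Kdm4b went from 2.30 to 2.7 to 11.8 to 12.6 in WT, a 4.83-fold change, and changed 5.06-fold in KO. Kdm4d had 11 reads in all libraries together.

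The Kdm5 enzymes remove the methyl mark of active promoters. Kdm5b fell, from 376, 339 and 437 to 99.9, 83.2 and 139 in WT and from 274, 377 and 373 to 77.4, 111 and 102 in KO BMDMs, at -1.85 ± 0.18 (adjusted p = 1.31e-05) and -1.81 ± 0.18 (adjusted p = 1.98e-05). The X-linked Kdm5c rose, from 2012, 1372 and 1487 to 4301, 3144 and 3741 in WT and from 1482, 1758 and 1334 to 3450, 4014 and 3216 in KO BMDMs, at 1.21 ± 0.15 (adjusted p = 6.29e-05) and 1.23 ± 0.11 (adjusted p = 1.58e-05). Kdm5a passed the adjusted p at 0.73 and 0.76, and its value with total-read scaling was 0.00 in WT and 0.08 in KO. The ratio of Kdm5c to Kdm5b changed 8.40-fold in WT and 8.26-fold in KO.

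Kdm2b, a CpG island binding protein that recruits a Polycomb complex, fell from 678, 687 and 790 to 165, 186 and 189 in WT and from 820, 682 and 822 to 173, 251 and 203 in KO BMDMs. Its log2 fold change was -1.99 ± 0.10 (adjusted p = 8.18e-08) in WT and -1.90 ± 0.14 (adjusted p = 3.61e-06) in KO. Its paralog Kdm2a had values of -0.02 (adjusted p = 0.809) and -0.08 (adjusted p = 0.38). Kdm3b was called higher, at 1.14 in WT and 1.04 in KO, while its paralog Kdm3a, a hypoxia-inducible demethylase, passed the adjusted p at -0.94 and -0.84. Of the exon length of Kdm3b 24.6% is shared with an antisense gene model. The ratio of Kdm3b to Kdm3a went from 1.48 to 1.59 to 5.94 to 6.83 in WT. Kdm1a, or LSD1, the demethylase of the CoREST complex, went from 2.43 to 2.74 times the count of its paralog Kdm1b to 4.35 to 5.40 times in WT and from 2.64 to 2.92 times to 5.22 to 6.45 times in KO.

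Kdm6b, or JMJD3, a demethylase of the Polycomb mark known as an early LPS-induced gene in macrophages, did not pass the test for LPS at 4 h in either genotype (-0.28, adjusted p = 0.0991 in WT and 0.21, adjusted p = 0.289 in KO). Kdm6a, or UTX, its X-linked paralog, had -0.16 (adjusted p = 0.392) and -0.18 (adjusted p = 0.364). Of 8 other JmjC genes, 7 were tested, and in each genotype Riox2 was called higher (1.61 in WT) and Jmjd1c lower (-1.21 in WT).

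The AP-1 motif TGANTCA, searched on both strands, was in promoter windows of 8 of the 60 members with a window. Of the genes called higher in WT, 7 had a window, and the motif was in those of Hdac9, Kat2b, Kdm4a and Kdm5c, which is 4 genes. Of the 12 genes called lower, it was in those of Dnmt3aos and Hdac7. By window, 9 of the 84 member windows held it, against 7.81% of all windows. The kappaB motif was in 14 of the 84 (8.46% of all windows), belonging to 12 members, 1 of them called higher and 3 lower. The interferon motif GAAANNGAA was in 3 of the 84 (8.56% of all windows), belonging to 3 members. A gene with several annotated starts counts where any of its windows holds the motif, so shares of genes are not comparable with shares of windows. The windows of Kat2b (chr17:53566721-53567020, forward strand) and Kdm4a (chr4:118179994-118180293, reverse strand) are shown because these genes rose most among the 4, with the motif in capitals:
Kat2b: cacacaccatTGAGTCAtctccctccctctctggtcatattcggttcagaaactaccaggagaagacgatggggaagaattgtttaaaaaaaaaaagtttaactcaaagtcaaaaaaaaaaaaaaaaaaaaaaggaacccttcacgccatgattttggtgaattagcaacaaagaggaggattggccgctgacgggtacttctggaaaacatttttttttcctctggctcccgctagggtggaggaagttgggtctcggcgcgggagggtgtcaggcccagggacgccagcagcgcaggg
Kdm4a: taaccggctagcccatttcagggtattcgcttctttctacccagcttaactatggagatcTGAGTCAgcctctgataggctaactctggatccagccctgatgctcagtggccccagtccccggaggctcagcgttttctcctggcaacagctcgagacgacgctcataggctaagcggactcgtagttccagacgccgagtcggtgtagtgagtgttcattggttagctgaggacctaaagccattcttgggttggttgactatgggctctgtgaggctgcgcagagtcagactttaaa
The motif begins 240 bases before the start in Kat2b and 190 bases before it in Kdm4a. It is a match of letters only.

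Among the methyltransferases, Setd7, which methylates histone H3 and several transcription factors, fell from 927, 970 and 1237 to 211, 261 and 309 in WT and from 1112, 999 and 1109 to 290, 281 and 237 in KO BMDMs. Its log2 fold change was -2.01 ± 0.15 (limma adjusted p = 1.87e-06) and -1.99 ± 0.10 (adjusted p = 2.31e-07). No other of the 8 coding Setd genes was called in either genotype. Setd1b, a methyltransferase of active promoters, came closest from below among the rises, at 0.82 and 0.85, while its paralog Setd1a had -0.10 (adjusted p = 0.26) and -0.13 (adjusted p = 0.26). The exon length of Setd1a is shared with other gene models for 52.3%. The ratio of Setd1b to Setd1a went from 2.46 to 2.86 to 4.60 to 5.51 in WT. Setd2, which marks transcribed gene bodies, and Setd3, an actin histidine methyltransferase, had 0.26 and 0.34 in WT, with -0.46 and -0.38 under total-read scaling.

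Ezh2, the main catalytic subunit of Polycomb repressive complex PRC2 in dividing cells, passed the adjusted p at -0.69 in WT and -0.77 in KO. Ezh1, its paralog of resting cells, went from 2.22 to 3.10 times the Ezh2 count to 4.57 to 5.45 times in WT and from 1.76 to 2.74 times to 4.13 to 5.17 times in KO BMDMs. Of 9 genes for PRC2 partners, 3 were called higher and 2 lower in each genotype. Jarid2, Aebp2 and Suz12 rose by 2.08, 1.69 and 1.09 in WT, while the Polycomb-like genes Phf1 and Phf19 had -1.90 and -1.01. Other histone methyltransferases numbered 26, with 3 called higher and 3 lower in each genotype. Setdb2 rose by 4.00 in WT and 4.09 in KO, Nsd3 by 2.09 and 2.08, and Carm1, the arginine methyltransferase also known as Prmt4, by 1.06 and 1.02. Kmt5c (-2.60 in WT), Smyd4 (-2.10) and Dot1l (-1.21) were called lower. Of 7 acetyl-lysine readers, Brd2 was called higher (2.55 in WT, 2.47 in KO).

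Arginine methyltransferases of the Prmt names were split between Prmt9, which rose, and Prmt3 and Prmt7, which fell. Prmt9, a splicing factor methyltransferase, was at 450, 461 and 451 untreated and 1082, 1081 and 1002 with LPS in WT, and at 401, 450 and 416 against 1207, 901 and 958 in KO BMDMs (1.21, adjusted p = 1.5e-07 and 1.26, adjusted p = 1.12e-05). Prmt3, which acts on the ribosome, was at 327, 317 and 293 untreated and 151, 122 and 114 with LPS in WT, and at 267, 322 and 287 against 157, 135 and 148 in KO BMDMs. It was called in WT (-1.28, adjusted p = 1.16e-05) and lay just inside 2-fold in KO (-0.99, adjusted p = 5.5e-05). Prmt7 was called lower in both, at -1.14 and -1.23. Prmt5, the main enzyme of symmetric arginine dimethylation, passed the adjusted p at -0.57 and -0.52. Prmt1, the main asymmetric enzyme and the most abundant Prmt gene per kilobase at 267 in untreated WT, had 0.18 (adjusted p = 0.131, or 0.0153 with the replicate block) in WT and 0.21 (adjusted p = 0.0114) in KO, with -0.54 and -0.47 under total-read scaling.

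LPS calls in the 2 genotypes rest on separate control libraries. Of the members called, 21 were called in WT and in KO, all in the same direction, 3 in WT only (Hdac7, Hdac9 and Prmt3) and 3 in KO only (Hdac4, Sirt4 and Sirt5). None of these 6 passed the interaction test, but for Hdac9 and Sirt5 its 95% interval reached past 2-fold. The overlap of calls over all genes was not counted, so the agreement is not read as particular to the enzymes. Among the 21, Dnmt3c and Hdac1-ps passed the filter through the LPS-treated groups alone, so their agreement is not read as support. Over all members, no interaction passed an adjusted p under 0.05 among 67 tested with limma, and edgeR and DESeq2 gave 0 as well. The background was 0.00787% of 12711 genes with limma, that is 1 gene. With edgeR it was 1 gene, and with DESeq2 18 higher and 6 lower. An unadjusted limma p under 0.05 was seen for 3 members and for 537 of all 12711 genes. The most positive fitted value was that of Dnmt3c, 0.88 (adjusted p = 0.999), but with 4 and 1 untreated reads it depends on the pseudocount and lay between 0.58 and 2.30 under the other settings, so nothing is read from it. The most negative was that of Hdac9. The 95% interval lay within a 2-fold difference for 61 of the 67 members. The exceptions were Dnmt3c, Hdac1-ps, Hdac9, Kdm5d, Kdm6b and Sirt5.

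No enzyme differed between KO and WT BMDMs at an adjusted p under 0.05 with limma, either untreated, with 66 tested and a background of 0.538% of all genes, or with LPS, with 67 tested and a background of 0.816%. An unadjusted p under 0.05 was seen for 5 and 4 members, beside 1345 of all 12461 and 1324 of all 12504 tested genes. The 95% interval of the difference lay within 2-fold for 64 of 66 members untreated and 65 of 67 with LPS, and within 0.5 on the log2 scale for 58 and 47. The exceptions to the first count were Kdm5d in both, Kdm6b untreated and Dnmt3c with LPS. With edgeR 0 members passed in either state, and with DESeq2 1 untreated, Kdm6b, and 0 with LPS. Of all 12461 genes tested untreated, edgeR passed 28 higher and 28 lower, and DESeq2 175 higher and 151 lower. Of all 12504 tested with LPS, edgeR passed 69 higher and 49 lower, and DESeq2 122 higher and 99 lower.

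**Figure D3:**
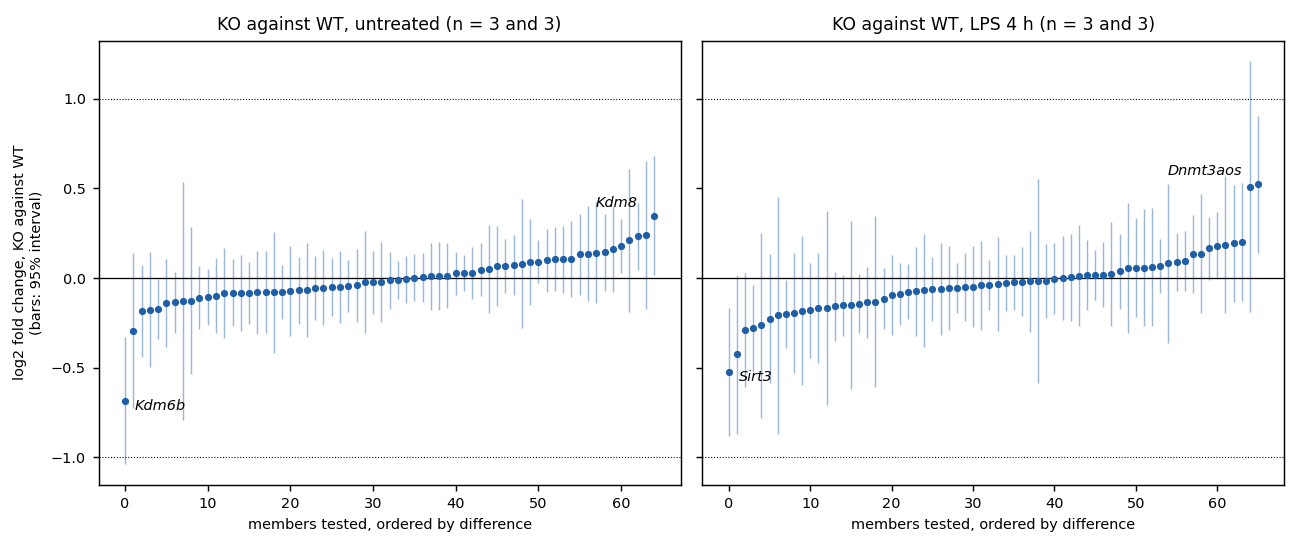
Log2 fold change of KO against WT BMDMs (y axis, bars are 95% intervals, n = 3 and 3 libraries) for each member tested, ordered by value (x axis), untreated on the left and with LPS on the right. Kdm5d, which is near 0 in 1 library of each group, is left out. The points lie between -0.69 for Kdm6b and 0.35 for Kdm8 untreated, and between -0.52 for Sirt3 and 0.52 for Dnmt3aos with LPS.

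Kdm6b showed the most negative difference in untreated cells. Its gene lies on chromosome 11 (GRCm38, 69398508 to 69413675, reverse strand). It was at 267, 258 and 353 in untreated WT and 190, 149 and 206 in untreated KO BMDMs. Every KO library lay below every WT library, but the gene was picked for its large difference, so this separation is not read as support. The log2 fold change was -0.69 ± 0.16 (SE, 95% interval -1.04 to -0.33, limma adjusted p = 0.12). With DESeq2 the adjusted p was 0.00229 and without a filter on low counts 0.0194, while with edgeR it was 0.117. Leaving out single libraries gave -0.78 to -0.54, with adjusted p of 0.148 to 0.26. With LPS the libraries overlapped, at 208, 258 and 252 in WT and 173, 250 and 208 in KO (-0.20, adjusted p = 0.719), and the interaction was 0.49 (adjusted p = 0.999). The antisense gene Kdm6bos, which overlaps Kdm6b, had at most 6 reads in a library.

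Kdm8 had the largest positive difference untreated, at 44.3, 39.0 and 42.2 in WT and 51.5, 57.3 and 51.5 in KO (0.35, limma adjusted p = 0.44). With LPS, Sirt3 was at 113, 102 and 116 in WT and 83.5, 81.1 and 65.3 in KO BMDMs. The groups did not overlap, and the log2 fold change was -0.52 ± 0.16 (95% interval -0.88 to -0.17, adjusted p = 0.239). Of the exon length of Sirt3 12.7% is shared with neighbouring genes. Dnmt3aos had the largest positive difference with LPS, at 0.52 (95% interval 0.14 to 0.91, adjusted p = 0.283). Its groups did not overlap either, whereas Dnmt3a on the other strand differed by 0.00 (adjusted p = 0.991). Sirt3 and Dnmt3aos were picked for the size of their differences, so their separation is not read as support.

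Members on the sex chromosomes split each group in another way. The labels give no sex. Kdm5d, on the Y chromosome, was at 403 to 610 normalized counts in the 8 libraries with Y-linked reads and at 1.31 to 2.77 in the 4 without, and Xist, the RNA that coats the inactive X chromosome, was at 5.73 to 28.7 in the former and 15146 to 18652 in the latter. The X-linked Kdm5c and Kdm6a, which are known to escape X inactivation, were higher in the library without Y-linked reads than in either other library of its group, in all 4 groups. The ratio to the mean of the other 2 libraries was 1.2 to 1.41 for Kdm5c and 1.33 to 1.42 for Kdm6a. For the X-linked Hdac6 and Hdac8 it was 0.883 to 0.961 and 0.824 to 0.961. With 1 such library per group this spread is a description with no test. These libraries were WT replicate 1 and KO replicate 2, untreated and with LPS alike. Since the numbers pair libraries within a genotype, these 4 libraries are not independent observations. A term for them changed no call of a member.

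**Figure D4:**
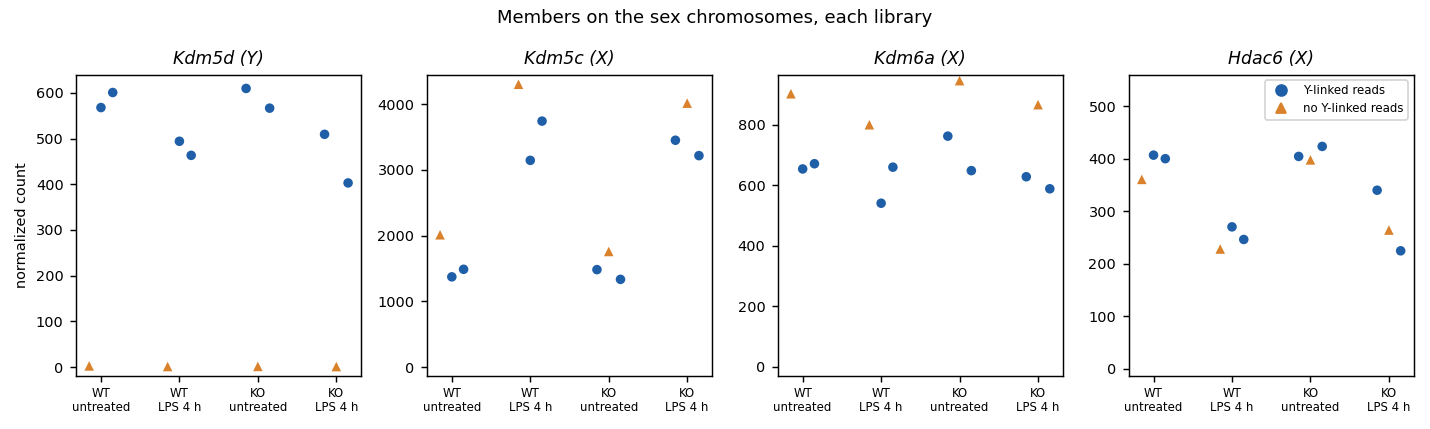
Normalized counts (y axis, from 0) of the Y-linked Kdm5d and the X-linked Kdm5c, Kdm6a and Hdac6 in each of the 12 libraries by group (x axis), with triangles for the 4 libraries without Y-linked reads. The triangles lie at 0 for Kdm5d and highest within each group for Kdm5c and Kdm6a.

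Members below the level tested are accounted for here. Of the 81, 13 were tested in no comparison, with at most 11 reads in a library, and 4 of them code for protein: Dnmt3l, Kdm4d, Prmt8 and Tet1. The others were the antisense genes Dnmt3bos and Kdm6bos and the pseudogenes Dnmt3a-ps1, Dnmt3l-ps1, Kat2b-ps, Kat6b-ps1, Kat6b-ps2, Kdm4dl and Setd9-ps, of which Dnmt3bos, Dnmt3a-ps1 and Kat6b-ps1 had 0 reads in every library. Hdac11 was tested only between untreated genotypes (-0.13, adjusted p = 0.919), and Dnmt3c and Hdac1-ps in every comparison but that one. Just under 2-fold in WT lay Kdm3a (-0.94), Sirt4 (-0.84) and Setd1b (0.82), and just past it Sirt1 (1.02), Hdac7 (-1.08) and Kdm3b (1.14). In 13 members neither genotype gave an adjusted p under 0.05 for LPS: Hdac3, Kat2a, Kdm2a, Kdm4c, Kdm5d, Kdm6a, Kdm6b, Kdm8, Prmt2, Prmt6, Setd1a, Setd5 and Setd6. Their values in WT lay between -0.41 for Kdm5d and 0.20 for Prmt6.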

How the data were processed

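Libraries were made from macrophages of both genotypes, 3 per group, as given above. Per the submitters' notes, bcl2fastq 2.17 made the reads, Trimmomatic 0.39 trimmed them, STAR 2.7.4a aligned them to GRCm38 and featureCounts of Subread 2.0.1 counted them. The table that the authors deposited holds a signal, normalized counts, which are reads per gene over a size factor of DESeq2 (1.32.0, R 4.1.2). Whole reads were recovered for 100% of the values (tolerance 1e-06), and depth was 19316691 to 24977356 reads per library.

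The log2 of each normalized count plus 1 entered limma 3.58.1 (R 4.3.3) with a variance trend, using only the libraries of both groups compared. Testing was limited to genes averaging 10 or more, with Benjamini-Hochberg adjustment over those genes. Calls required adjusted p under 0.05 together with a log2 fold change of 1 or more in size. The interaction was fitted on all 12 libraries. Scripts were tested on simulated data. Other settings tried were pseudocounts (0.5 and 5), filters (none, and 50), scalings (upper quartile, quantile, total reads), a joint fit, no trend, edgeR 4.0.16 and DESeq2 1.42.0 on recovered reads, a replicate block, other thresholds and each library left out. A term for libraries lacking Y-linked reads was chosen after seeing the data.

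Same-numbered untreated and LPS-treated libraries of a genotype deviated together (Pearson correlations of 0.33, 0.19 and 0.24 for WT replicates 1 to 3, then 0.29, 0.28 and 0.17 for KO, each the highest of its library), so the numbers pair them, although the labels do not say why. The fits shown have no block, as the study's methods were unpaired. The p-values measure the spread between 3 biological replicates.

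Members follow a rule on gene symbols. They and the gene lists were chosen with earlier results of these data known. Values per library are given for up to 10 called members with the largest change in each direction in WT and, between genotypes, for members at an adjusted p under 0.05 and the largest difference each way. Paralogs are given by level and response. Positions, exon lengths and overlaps come from GENCODE M21 (GRCm38) and promoter windows from RefSeq. The authors counted with another annotation release of that genome. Some genes of the lists are not reported here.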

Additional observations from a re-analysis of the deposited data

How the results depend on the processing

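Leaving out single libraries gave 10 to 12 members called higher and 12 to 14 called lower after LPS in WT, and 9 to 12 and 13 to 14 in KO. At an adjusted p under 0.05 alone it gave 19 to 24 higher and 24 to 28 lower in WT, and 22 to 23 and 28 to 30 in KO. Between genotypes and for the interaction it gave 0 throughout. Calls near 2-fold depended on single libraries: Sirt1 was at 0.96 without untreated WT replicate 3 and 0.95 without LPS-treated WT replicate 1, and at 0.97 and 0.89 without untreated KO replicate 3 and LPS-treated KO replicate 1, and Kdm3b in KO at 0.96 without untreated replicate 2 and 0.97 without LPS-treated replicate 1.

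Scaling mattered most. In WT, 12 higher became 6 with quantile normalization and 3 with total-read scaling, and 12 lower became 20 with upper quartile and 29 with total-read scaling. In KO, 11 higher became 5 with upper quartile scaling, 6 with quantile normalization and 4 with total-read scaling, and 13 lower became 20 with upper quartile and 29 with total-read scaling. At an adjusted p alone, total-read scaling gave 12 higher and 50 lower in WT and 10 and 49 in KO, and upper quartile scaling gave 15 higher in KO. They also lowered the median of all tested genes, by the shifts given in the report. Counts over all tested genes moved too. Quantile normalization called 1875 higher in WT and 1936 in KO, from 2158 and 2201. At an adjusted p alone, total-read scaling gave 2181 higher and 8943 lower in WT and 2228 and 8582 in KO. Upper quartile scaling gave 3138 higher in KO. A fold limit of 1.5 gave 21 lower in WT and 23 in KO, and the share of all genes at this limit was not counted.

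Small rises after LPS were reversed, 41 times in all. Upper quartile scaling turned the log2 fold change negative in WT of Ezh1 -0.056, Hdac2 -0.039, Kdm7a -0.093, Prmt1 -0.14, Setd2 -0.061, Sirt2 -0.13 and Sirt6 -0.025, and in KO of Ezh1 -0.075, Prmt1 -0.11, Setd2 -0.21 and Sirt2 -0.064. Quantile normalization turned the log2 fold change negative in WT of Ezh1 -0.065, Kdm7a -0.11, Prmt1 -0.044, Setd2 -0.22, Setd3 -0.22 and Sirt2 -0.49, and in KO of Ezh1 -0.084, Setd2 -0.34, Setd3 -0.23 and Sirt2 -0.43. Total-read scaling turned the log2 fold change negative in WT of Ezh1 -0.46, Hdac2 -0.44, Kat5 -0.12, Kdm1a -0.054, Kdm7a -0.50, Prmt1 -0.54, Setd2 -0.46, Setd3 -0.38, Sirt2 -0.53 and Sirt6 -0.43, and in KO of Ezh1 -0.44, Hdac2 -0.18, Kat5 -0.30, Kdm1a -0.13, Kdm7a -0.30, Prmt1 -0.47, Setd2 -0.57, Setd3 -0.35, Sirt2 -0.43 and Sirt6 -0.17.

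Between untreated genotypes, 1 member, Kdm6b, passed the adjusted p with no filter and with DESeq2, and the cause was not tested. Over all genes, 111 higher and 97 lower of 29523 passed with no filter, and 175 and 151 of 12461 with DESeq2. The replicate block also gave 1, the same gene, but between genotypes the number joins different mice and pairs nothing, so that fit is not used. The remaining settings gave 0. For LPS, where the numbers pair libraries within a genotype, the replicate block brought Kdm1b (adjusted p = 0.0407), Prmt1 (0.0153) and Sirt3 (0.0353) in WT under an adjusted p of 0.05, as in KO without it, and changed no other call of a named member. On the recovered reads edgeR called 2126 of all genes higher and 2226 lower after LPS in WT, and 2187 and 2176 in KO, with 11 and 12 members in WT and 11 and 14 in KO. Of the named LPS fold changes, 967 of 1075 settings in WT and 1002 of 1077 in KO kept direction and side of the threshold. Depth limits the members with few reads, Dnmt3c, Hdac1-ps and Hdac11 among those tested.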
